A study of Mus musculus with 6 samples.

Results

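Myc, Ccnd1, Ccnd2, Cdk6, Cd44, Sox4, Sox9 and Prox1 are 8 genes that WNT signalling is known to switch on in intestinal crypts and that promote growth or keep cells in the crypt program. They were taken by symbol from a table of 24930 genes, and all 8 were found and measured. Messenger RNA had been measured by sequencing in crypt epithelium of mice, in 3 libraries labelled β-catenin GOF/+ (called mutant here) and 3 control libraries. In the mutant crypts 1 allele of β-catenin had been made a gain-of-function allele, and the material was taken on day 4 after induction. Their column names in the table point to an exon changed on 1 allele. The labels used here give no genotype for the controls, no Cre driver, and no strain, age or sex. They do not state whether each library was made from its own animal, so a p-value covers only the variation among these libraries, some of which can be technical.

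WNT signalling works by sparing β-catenin from destruction. The spared protein enters the nucleus and joins TCF and LEF factors on DNA, and their target genes are then transcribed. In the crypt this keeps stem and transit-amplifying cells dividing. Among the targets, Myc encodes a transcription factor that drives ribosome production and metabolism, the D cyclins and Cdk6 form kinases that push cells through G1 phase, and Cd44 encodes a cell surface receptor for hyaluronan. Sox4 and Sox9 encode HMG box transcription factors, and Sox9 is known to be needed for Paneth cells. Prox1 encodes a homeobox transcription factor known to promote the growth of intestinal adenomas and also found in enteroendocrine cells.

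Promoter sequence from RefSeq (build GRCm38.p6) was at hand for 4 of the 8 genes, Cd44, Cdk6, Prox1 and Sox4, with 5 start sites in all. 3 of them are shown, as the 250 bases before the start. Cd44 and Prox1 are the genes whose groups did not overlap, and Cdk6 holds the recognition sequence of MYC. Capitals mark CTTTG or its reverse complement CAAAG, the core of the sequence that TCF factors bind, and CACGTG, the E-box that MYC binds.
Cd44, chr2:102901666-102901915, minus strand: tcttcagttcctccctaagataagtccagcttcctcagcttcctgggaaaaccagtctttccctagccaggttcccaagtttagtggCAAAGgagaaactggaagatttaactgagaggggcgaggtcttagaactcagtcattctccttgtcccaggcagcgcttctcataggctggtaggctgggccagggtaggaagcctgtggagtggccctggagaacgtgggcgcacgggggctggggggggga
Prox1, chr1:190169516-190169765, minus strand: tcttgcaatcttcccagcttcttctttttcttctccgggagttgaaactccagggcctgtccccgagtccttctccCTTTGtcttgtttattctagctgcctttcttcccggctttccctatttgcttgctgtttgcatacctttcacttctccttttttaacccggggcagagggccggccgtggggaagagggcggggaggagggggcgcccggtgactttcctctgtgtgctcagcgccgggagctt
Cdk6, chr5:3343643-3343892, plus strand: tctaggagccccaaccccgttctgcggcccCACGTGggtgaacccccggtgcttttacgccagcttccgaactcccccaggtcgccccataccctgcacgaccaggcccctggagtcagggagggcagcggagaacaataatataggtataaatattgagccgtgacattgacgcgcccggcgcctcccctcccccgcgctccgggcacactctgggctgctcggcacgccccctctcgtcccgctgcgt

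The core stood 163 bases before the Cd44 start and 174 bases before this Prox1 start, and the E-box stood 220 bases before the Cdk6 start. Both strands of the 300-base windows, which run 50 bases past the start, were searched. The core was found in 53.9% of all 32851 windows and the E-box in 7.15%. A longer form of 7 letters, in which CTTTG is followed by AA, AT, TA or TT and which thus overlaps the core, was found in 16.9% of all windows and in 0 of the 5 windows of these genes. The other Prox1 start and the Sox4 start held neither the core nor the E-box. A match is a description of the letters and not a binding site, and a window without a match says nothing of binding elsewhere.

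Each gene has a single normalized value per library, given here in units. They behave as values per transcript length, so levels can be set side by side between genes: among genes seen in a single library, the third with the shortest transcripts had a median of 0.113 units and the third with the longest a median of 0.0277 units. Read depth is unknown, and library totals ranged from 645225 to 940163 units in mutant and from 756929 to 1268771 units in control libraries. Xist and Y-linked genes marked mutant replicate 1 and control replicates 1 and 2 as male and the other 3 libraries as female. Epithelial markers were high in every library, as the label of crypt epithelium states: the sum over Epcam, Cdh1, Krt8, Krt18, Krt19, Vil1 and Cdx2 was 4746 to 6190 units in mutant and 4236 to 5133 units in control libraries. Mutant replicate 3 stood apart, with 110 units summed over 5 stem cell markers against 647 and 870 units in the other mutant libraries and 589 to 1389 units in control libraries. Its enterocyte markers were high, with 21531 units summed over 7 of them, against 10509 and 4955 units in mutant replicates 1 and 2 and 2967 to 8231 units in control libraries. The part of this shift in cell markers in the results was not tested.

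None of the 8 genes passed the test between mutant and control crypts. All 8 had a mean of at least 1 unit and entered the fit, which ran over 11837 genes with limma and Benjamini-Hochberg adjustment, and 0 of the 8 had an adjusted p under 0.05. Over all genes 2 passed, or 0.0169%, both lower in mutant libraries. At an unadjusted p under 0.05 the count was also 0 of 8, against 8.31% of all genes. The groups did not overlap for 2 of the 8, Cd44 with every mutant value above and Prox1 with every mutant value below every control value, against 16.7% of all genes. Over all genes 8.34% had every mutant value above and 8.37% every mutant value below the control values. The same 2 genes did so without mutant replicate 3, where the share over all genes was 21.8% (a check added after seeing the data). The median log2 difference of the 8 genes was 0.11, against -0.02 over all genes tested. It was 0.09 without mutant replicate 3.

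**Figure D1:**
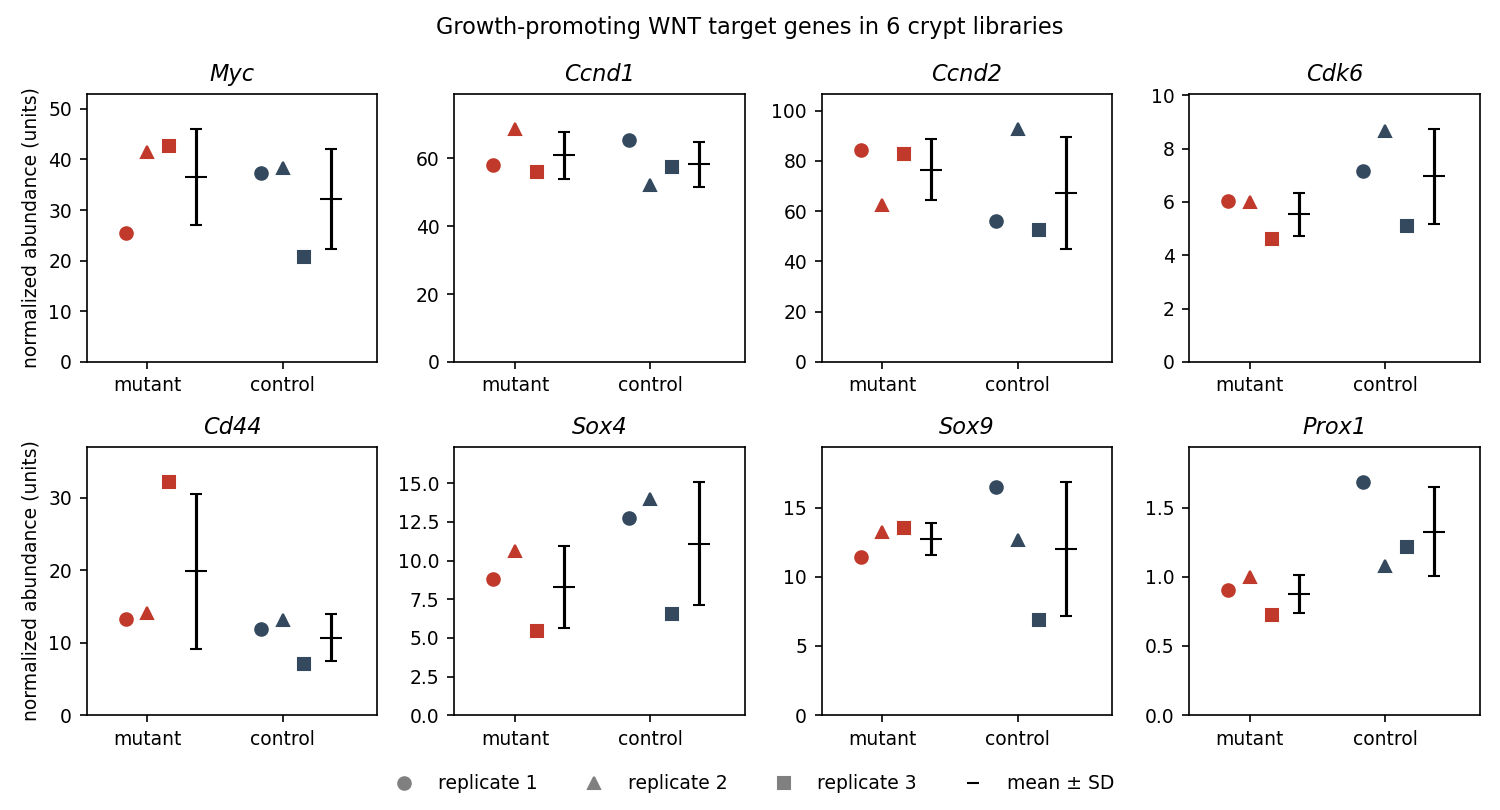
Normalized abundance (units, linear axis from 0) of the 8 genes in each library, mutant left and control right, with symbols for the replicates and black bars for the mean ± SD of 3 libraries. Cd44 in mutant replicate 3 stands at 32.2 units, and the groups are apart for Cd44 and Prox1 alone.

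Myc stood at a similar level in both groups and varied widely within each. It had 25.5, 41.5 and 42.6 units in mutant replicates 1, 2 and 3, against 37.2, 38.3 and 20.8 units in control replicates 1, 2 and 3. Both groups thus hold 1 low library, mutant replicate 1 and control replicate 3, and the others lie close together. The means were 36.5 ± 9.58 units in mutant and 32.1 ± 9.84 units in control libraries (SD, n = 3 each). The log2 difference was 0.19 ± 0.30 (SE) with a 95% interval of -0.52 to 0.90 and an adjusted p of 0.803 in limma. It was -0.08 without control replicate 3 and 0.43 without mutant replicate 1.

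The D cyclins Ccnd1 and Ccnd2 were the most abundant of the 8 genes. Ccnd1 had 57.9, 68.8 and 56.1 units in mutant replicates 1, 2 and 3, against 65.3, 52.0 and 57.4 units in control replicates 1, 2 and 3. The groups overlap, and the spread was narrow, with coefficients of variation of 11.3% in mutant and 11.5% in control libraries. Its log2 difference was 0.06 ± 0.16 with an interval of -0.30 to 0.43 (adjusted p of 0.881 in limma), so this interval leaves out a doubling in either direction. In the GRCm38 annotation 1100 bases of Ccnd1 exons are shared with LTO1, a gene on the opposite strand with a mean of 13.1 units, and whether strand was used in counting is not given in the sources used here.

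Ccnd2 had 84.5, 62.4 and 82.8 units in mutant replicates 1, 2 and 3, against 56.2, 92.9 and 52.4 units in control replicates 1, 2 and 3. Control replicate 2 was the highest library and the other controls were the lowest, so the groups overlap. Ccnd2 had a log2 difference of 0.22 ± 0.25 with an interval of -0.38 to 0.82 (adjusted p of 0.733 in limma). Without control replicate 2 it was 0.48.

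Ccnd1 and Ccnd2 traded places from library to library. The sum of the D cyclins varied little in mutant libraries and more in control libraries. The ratio of Ccnd1 to Ccnd2 was 0.685, 1.10 and 0.677 in mutant replicates 1, 2 and 3, against 1.16, 0.559 and 1.10 in control replicates 1, 2 and 3. Each group thus has libraries in which Ccnd1 leads and libraries in which Ccnd2 leads. With Ccnd3, the D cyclin that is common in lymphoid cells, the sum was 154 ± 4.49 units in mutant and 141 ± 18.1 units in control libraries (SD, n = 3 each). Ccnd3 itself had 12.1, 17.6 and 18.9 units in mutant replicates 1, 2 and 3, against 16.1, 15.2 and 14.6 units in control replicates 1, 2 and 3, so it was the least abundant D cyclin in every library.

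**Figure D2:**
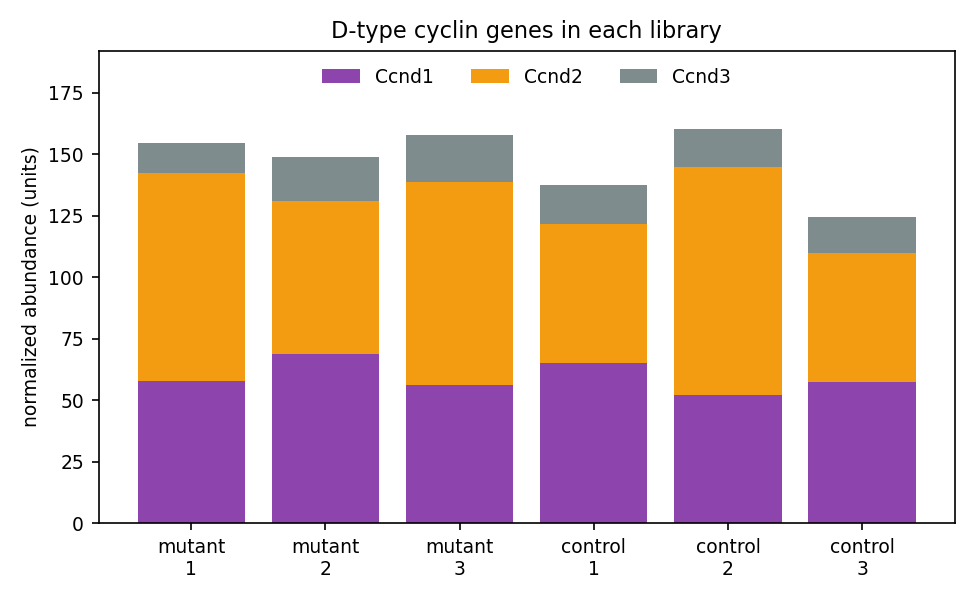
Normalized abundance (units) of Ccnd1, Ccnd2 and Ccnd3 stacked in each library, mutant libraries left and control libraries right. The stack averages 154 units in mutant and 141 units in control libraries, while the split between Ccnd1 and Ccnd2 differs between libraries of the same group.

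Cdk6, a kinase partner of the D cyclins, was low beside its relative Cdk4. It had 6.02, 5.99 and 4.60 units in mutant replicates 1, 2 and 3, against 7.17, 8.65 and 5.10 units in control replicates 1, 2 and 3. 2 of the 3 control libraries lie above all mutant ones, and control replicate 3 lies among them. For Cdk6 the log2 difference was -0.27 ± 0.21 with an interval of -0.76 to 0.22 (adjusted p of 0.632 in limma). Cdk4 stood at 71.6 to 148 units in mutant and 103 to 155 units in control libraries, and its ratio to Cdk6 was 19.2 ± 4.85 in mutant and 18.4 ± 1.53 in control libraries (SD, n = 3 each).

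Cd44 had the largest log2 difference of the 8 genes in either direction. It had 13.2, 14.1 and 32.2 units in mutant replicates 1, 2 and 3, against 11.9, 13.1 and 7.04 units in control replicates 1, 2 and 3. Mutant replicate 3 was far above the rest and control replicate 3 the lowest, while the other 4 libraries lie within a narrow band in which the groups just clear each other. The means were 19.8 ± 10.7 units in mutant and 10.7 ± 3.22 units in control libraries (SD, n = 3 each). Its log2 difference was 0.76 ± 0.37 with an interval of -0.13 to 1.64 and an adjusted p of 0.589 in limma. Without mutant replicate 3 it was 0.37 (limma adjusted p of 0.925), and leaving out control replicate 3 gave 0.51 (limma adjusted p of 0.661).

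Cd44 is also made by fibroblasts and leukocytes, and their markers were measured beside it. All 10 stromal markers, collagens, Dcn, Lum, Pdgfra, Vim, Sparc, Mgp and Acta2, had all 3 mutant values above all control values. Of all genes tested, 8.34% were apart in this direction, a share that leaves out genes with a mean under 1 unit. The markers summed to 20.2 to 44.5 units in mutant and 5.05 to 8.22 units in control libraries, highest in mutant replicate 3. 6 of the 10 reached a mean of 1 unit and were tested, and 0 passed (smallest adjusted p of 0.0935 in limma, for Mgp). Control means of Col1a2, Col3a1, Dcn, Sparc and Mgp lay under 1 unit, so these genes entered the test only through their mutant values. Such entry favours groups that lie apart, so the 8.34% is not a like share for these markers. In control libraries Pdgfra was at 0 in all 3, Mgp in 2 of them, and Col1a2 and Lum in 1 of them. The sum over 11 immune markers was 169 units in mutant replicate 3, 53.5 and 43.9 units in mutant replicates 1 and 2, and 37.4 to 93.1 units in control libraries, so these groups overlap. 5 endothelial markers summed to at most 1.93 units in any library. The part of these cells in the Cd44 values was not tested, and in bulk RNA a change in cell number and a change in RNA per cell cannot be told apart.

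Sox4 and Sox9 stood at similar levels in control libraries. Sox4 had 8.82, 10.6 and 5.45 units in mutant replicates 1, 2 and 3, against 12.8, 14.0 and 6.54 units in control replicates 1, 2 and 3. Replicates 3 of both groups were low, and the other control libraries were above all mutant ones. The log2 difference was -0.36 ± 0.33 with an interval of -1.13 to 0.42 (adjusted p of 0.674 in limma). It was -0.12 without mutant replicate 3 and -0.67 without control replicate 3. In the annotation 2616 bases of Sox4 exons are shared with Gm26735, a long noncoding RNA gene on the opposite strand.

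Sox9 had 11.4, 13.2 and 13.5 units in mutant replicates 1, 2 and 3, against 16.5, 12.7 and 6.89 units in control replicates 1, 2 and 3. The mutant libraries lie within the control range, with a coefficient of variation of 8.99% against 40.3% in control libraries. The log2 difference was 0.15 ± 0.29 with an interval of -0.54 to 0.83 (adjusted p of 0.851 in limma), and it was -0.18 without control replicate 3 and 0.40 without control replicate 1. The ratio of Sox9 to Sox4 was 1.29, 1.24 and 2.48 in mutant replicates 1, 2 and 3, against 1.29, 0.906 and 1.05 in control replicates 1, 2 and 3.

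Cell types that use Sox9 differed in their markers between libraries. The sum of 6 Paneth cell markers was 31404 to 140006 units in mutant and 84736 to 321941 units in control libraries, all 6 lower on average in mutant libraries. The sum of 7 tuft cell markers was 28.2 to 42.2 units in mutant and 37.1 to 98.0 units in control libraries, with all 7 lower on average. The libraries did not fall in the same order by Paneth cell markers as by Sox9: control replicate 1 had the highest of both, but mutant replicate 3, with the lowest Paneth cell sum, had the next most Sox9, and control replicate 3, with the least Sox9, had a Paneth cell sum above those of mutant replicates 1 and 3. The 5 stem cell markers, all lower on average, summed to 110 to 870 units in mutant and 589 to 1389 units in control libraries. The part of these cell types in the Sox9 values was not tested.

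Prox1 was the scarcest of the 8 genes and lower in every mutant library. It had 0.908, 0.997 and 0.726 units in mutant replicates 1, 2 and 3, against 1.69, 1.08 and 1.22 units in control replicates 1, 2 and 3. Mutant replicate 2 and control replicate 2 lie next to each other, and control replicate 1 is well above the rest. The means were 0.877 ± 0.138 units in mutant and 1.33 ± 0.320 units in control libraries (SD, n = 3 each). The log2 difference was -0.30 ± 0.19 with an interval of -0.76 to 0.15 and an adjusted p of 0.601 in limma. The added 1 shrinks the difference of so low a gene, and with 0.1 in its place it was -0.53 (adjusted p of 0.603 in limma).

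Prox1 entered the test with a mean of 1.10 units over all libraries, close to the limit, and its mutant mean alone lies under it. Only 1.13% of tested genes had a lower mean. Enteroendocrine cells, in which Prox1 is also found, had 5 of 7 markers with every mutant value above every control value, against 8.34% of all genes. These 5 were Chga, Chgb, Neurod1, Tac1 and Sct. The groups overlap for Gip and Cck, Cck was lower on average in mutant libraries, and 0 of the 7 passed the test. The 7 markers summed to 339 to 615 units in mutant and 250 to 334 units in control libraries. Prox1 and the 5 markers without overlap thus stood apart between the groups in opposite directions. The 7 tuft cell markers were all lower on average in mutant libraries, as Prox1 was, with a median log2 difference of -0.72. The part of either cell type in the Prox1 values was not tested.

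**Figure D3:**
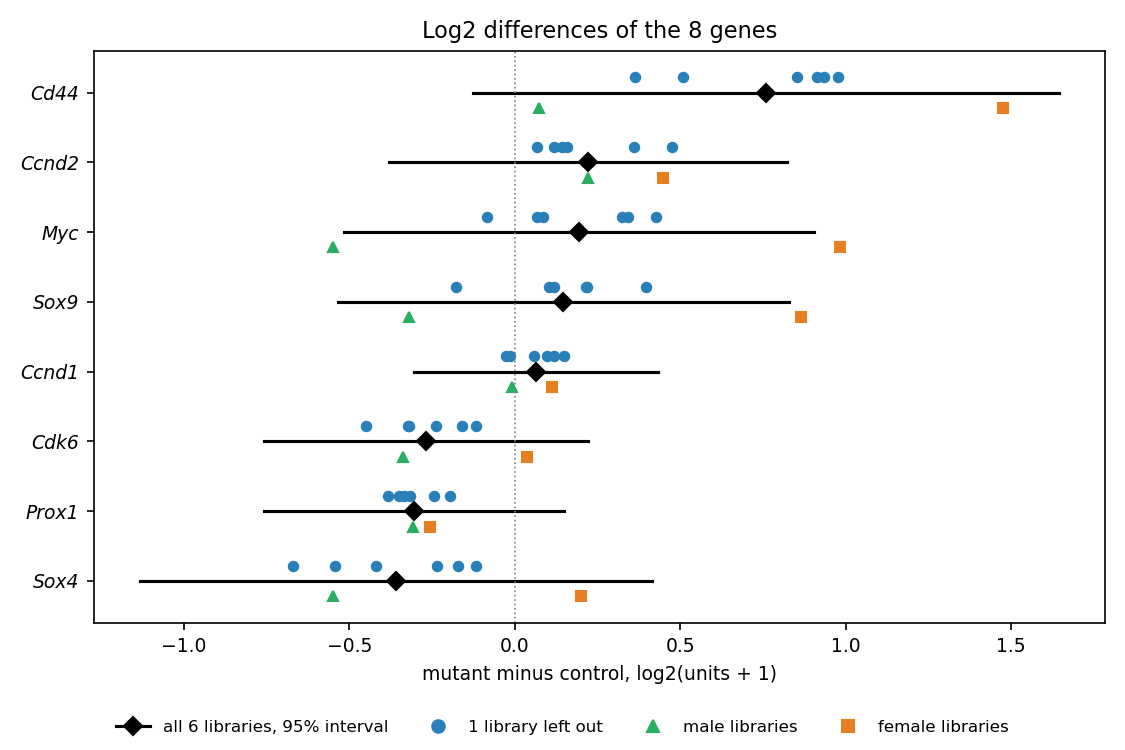
Log2 difference, mutant minus control on the log2(units + 1) scale, of each gene with its 95% interval (black), after leaving out each library in turn (blue), and within male and within female libraries (green and orange). Every interval includes 0, and the male and female values of Myc, Sox9, Sox4, Cdk6 and Ccnd1 lie on opposite sides of 0.

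The order of the levels was stable at its ends. In both groups Ccnd2 and Ccnd1 came first by mean with ranges that overlap, then Myc, whose range lay below that of Ccnd1. Cdk6 came next to last and Prox1 last in both groups and in each of the 6 libraries, with a mean of Cdk6 6.32 times that of Prox1 in mutant and 5.25 times in control libraries. The middle places differed. Cd44 came right after Myc in the mutant means and after both SOX genes in the control means, but the ranges of Sox9, Sox4 and Cd44 overlap in control libraries, as do those of Myc and Cd44 and of Cd44 and Sox9 in mutant libraries. Against all genes tested, Ccnd2 had a higher mean than 89.6%, Myc than 78.5%, Cd44 than 56.3% and Cdk6 than 30.2% of them.

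The spread within groups was wider than usual for most of the 8 genes. The pooled within-group SD on the log2 scale was 0.57 for Cd44, 0.49 for Sox4, 0.44 for Myc and 0.43 for Sox9, against a median of 0.24 over all genes tested. These 4 lie above 80.9 to 89.7% of genes, while Ccnd1 and Prox1 had an SD of 0.16 each. For Prox1 the added 1 lowers this SD, and its coefficients of variation were 15.7% in mutant and 24.1% in control libraries. Control replicate 3 was the lowest control library for 6 of the 8 genes, Myc, Ccnd2, Cdk6, Cd44, Sox4 and Sox9, and for 37.4% of all genes tested. Mutant replicate 3 was the lowest mutant library for 4 of the 8, against 44.7% of all genes tested. It was the highest for 3 of the 8, against 37.4% of all genes tested.

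The sexes of the libraries were unevenly spread over the groups, so the difference was also taken within each. Male values compare 1 mutant with 2 control libraries and female values 2 mutant with 1 control library, with no test. The log2 difference of Myc was -0.55 between male and 0.98 between female libraries, and that of Sox9 was -0.32 between male and 0.86 between female libraries. For these 2 of the 8 genes every male comparison and every female comparison pointed in opposite directions, as they did for 15.1% of all genes tested. In a limma fit with a group by sex term, added after seeing the data, 2.15% of all genes had an unadjusted p under 0.05 for that term. The difference of Cd44 was 0.07 between male and 1.48 between female libraries, and that of Sox4 was -0.55 between male and 0.20 between female libraries. Prox1 had the closest values, -0.31 between male and -0.26 between female libraries, on a scale where the added 1 shrinks the differences of so low a gene. Ccnd1 stood at -0.01 and 0.11 between male and between female libraries, Ccnd2 at 0.22 and 0.45, and Cdk6 at -0.34 and 0.04. With sex as a term in limma, 0 of the 8 genes passed and Cd44 had a log2 difference of 0.77 and Prox1 one of -0.28.

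7 lists of genes around the 8 targets were then described by their counts and medians, and 0 of their genes passed the test over all genes. Of 18 other WNT target genes 14 were tested, 8 were higher and 6 lower in mutant libraries, and the median log2 difference was 0.06 (0.15 without mutant replicate 3). The groups did not overlap for 3 of the 14, Jag1, Fzd7 and Sp5, all higher in mutant libraries, where the share over all genes is 16.7%. The Notch ligand gene Jag1 had 5.92 ± 0.603 units in mutant and 3.67 ± 0.438 units in control libraries (SD, n = 3 each), and the WNT receptor gene Fzd7 had 5.34 ± 0.892 units in mutant and 3.77 ± 0.356 units in control libraries, with an adjusted p of 0.589 in limma for both. The TCF factor gene Tcf7 had 5.65 ± 0.904 units in mutant and 4.08 ± 0.633 units in control libraries.

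Among 18 tested of 19 cyclins, kinases, inhibitors and substrates of G1 phase, 7 were higher and 11 lower, with a median of -0.13 (0.02 without mutant replicate 3). Every mutant value lay above every control value for 3 of the 18, E2f3, Cdkn1a and Cdkn1c, against 8.34% of all genes. Every mutant value lay below for 2 of the 18, Rbl2 and Cdkn2d, against 8.37% of all genes. The list holds inhibitors as well as drivers of the cell cycle, and its largest difference was that of an inhibitor. Cdkn1a, which encodes p21, had 93.5, 75.5 and 307 units in mutant replicates 1, 2 and 3, against 45.6, 44.8 and 57.2 units in control replicates 1, 2 and 3 (log2 difference of 1.39, adjusted p of 0.589 in limma, and 0.77 with 0.627 without mutant replicate 3). The pocket protein gene Rbl2 had 8.13 ± 1.69 units in mutant and 11.1 ± 0.919 units in control libraries, and the inhibitor gene Cdkn1b, which encodes p27, had 18.9 ± 5.63 units in mutant and 26.1 ± 2.04 units in control libraries.

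12 proliferation genes, among them Mki67 and the replication licensing genes Mcm2 to Mcm7, were all lower on average in mutant libraries. Of all genes tested, 47.3% were higher and the rest lower. The groups did not overlap for 0 of the 12, against 16.7% of all genes. The median log2 difference of the 12 was -0.19. Without mutant replicate 3 it was 0.04, and 8 of the 12 were higher. Mki67 had 51.3, 52.3 and 20.6 units in mutant replicates 1, 2 and 3, against 50.9, 78.3 and 46.2 units in control replicates 1, 2 and 3. Mutant replicate 3 was the lowest library for Mki67, Top2a and Pcna, and it is the library with the most Cd44.

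Of 13 genes that MYC is known to drive, including the nucleolar genes Ncl, Nop56 and Fbl, 11 were higher and 2 lower in mutant libraries, or 84.6% higher against 47.3% of all genes tested. Their median log2 difference was 0.17 with a range of -0.17 to 0.40, and 0.19 without mutant replicate 3. None of the 13 had an unadjusted p under 0.05 in limma, against 8.31% of all genes. The groups did not overlap for Ldha alone, against 16.7% of all genes. The 13 genes summed to 2761 to 3621 units in mutant and 2574 to 3338 units in control libraries. Replicate 2 had the highest sum of each group. The nucleolar gene Nop56 had 90.0 ± 18.6 units in mutant and 71.2 ± 1.93 units in control libraries, and the polyamine synthesis gene Srm had 32.3 ± 7.82 units in mutant and 24.2 ± 6.15 units in control libraries (SD, n = 3 each; adjusted p of 0.592 and 0.598 in limma). Among 12 partners, paralogs and antagonists of MYC, 7 were higher and 5 lower, with a median of 0.12 (0.03 without mutant replicate 3). The groups did not overlap for 2 of them, the MAX partner gene Mga and the paralog Mycl, both lower in mutant libraries, which equals the 16.7% over all genes. In mutant libraries Mga had 4.48 ± 1.14 units, against 7.37 ± 1.32 units in control libraries. Mlx was higher on average, with 72.0 ± 7.32 units in mutant and 58.3 ± 6.72 units in control libraries, and its groups overlap. Mycn, another paralog, had 0.289 to 1.65 units in mutant and 1.11 to 2.43 units in control libraries, so Myc was the most abundant of the 3 paralogs in every library.

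Of 13 ligands, partners and splicing regulators of CD44, 8 were tested and 7 were higher, with a median of 0.04. Without mutant replicate 3, 4 of the 8 were higher and the median was -0.03. Spp1, which encodes the ligand osteopontin, had 3.86 ± 1.19 units in mutant and 0.420 ± 0.307 units in control libraries (SD, n = 3 each, with an adjusted p of 0.249 in limma). Its control mean lies under the limit of 1 unit, so Spp1 entered the test only through its mutant values. The gene of the membrane linker ezrin, Ezr, had 336, 174 and 626 units in mutant replicates 1, 2 and 3, against 124, 150 and 227 units in control replicates 1, 2 and 3, and its log2 difference was 1.03, or 0.58 without mutant replicate 3. Esrp1, whose product favours the longer epithelial forms of CD44, had 43.4 ± 10.2 units in mutant and 54.5 ± 8.47 units in control libraries. The table gives 1 value per gene, so the forms of Cd44 were not separated. Of 12 relatives of the SOX and PROX genes 10 had a mean under 1 unit. The other 2 were Sox13, with 21.2 ± 8.95 units in mutant and 11.5 ± 2.31 units in control libraries, and Sox6, with 3.55 ± 1.12 units in mutant and 4.08 ± 0.779 units in control libraries.

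**Figure D4:**
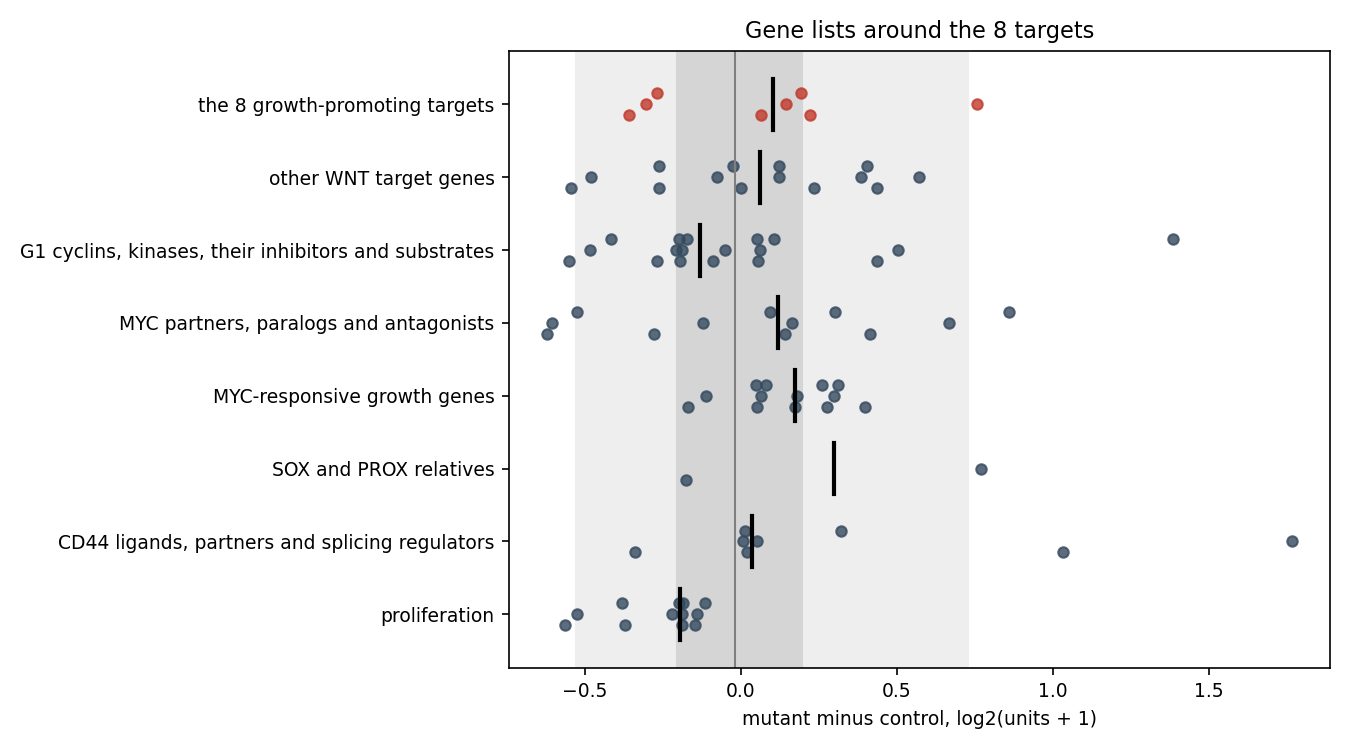
Log2 difference, mutant minus control on the log2(units + 1) scale, of the tested genes of each list, with the list median as a black bar. Grey bands hold the middle 50% and 90% of all genes tested, and the grey line is their median of -0.02. The 8 targets (red) lie between -0.36 and 0.76, and all 12 proliferation genes lie left of 0.

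The genes whose pattern over the 6 libraries was most like each target were found by the root mean square (RMS) difference of the centred log2(units + 1) values, among 8885 genes with a mean of at least 5 units. Arhgef10l was nearest to Myc, at an RMS difference of 0.131 where the median gene had 0.445, followed by Mecom at 0.150. Arhgef10l also came second for Sox9 at 0.0882, behind Tuba1a at 0.0853. Among the 8 genes themselves Ccnd1 and Prox1 lay 0.193 apart, Myc and Sox9 0.206, and Cdk6 and Sox4 0.209. Gss and Resf1 were nearest to Cd44, at 0.172 and 0.183, and both were highest in mutant replicate 3, with 123 and 22.8 units. Zc3h7b and Tspan12 were nearest to Sox4 (0.102 and 0.114), and Evi5 and Pgm3 to Cdk6 (0.0488 and 0.0527). Lnx2 and Tmem223 were nearest to Ccnd2 (0.110 and 0.135), Zscan25 and Jtb to Ccnd1 (0.0469 and 0.0495), and Zfp65 and Gca to Prox1 (0.0231 and 0.0578). A small RMS difference is easy to reach for a gene that varied little, as Ccnd1 and Prox1 did on this scale.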

How the data were processed

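Groups came from the sample titles, and columns were matched by group and replicate number; 0 value columns were left without a sample. The genes and lists were chosen with earlier results of these data known. The table holds a signal that the authors deposited, a normalized value for each gene. The submitters' processing notes list kallisto 0.46.1, DESeq2 1.40.1 and mm9 without a role for each, and the annotation and scaling are not stated in the sources at hand. The values are not counts, so no count model was run. By median ratios to their geometric mean, 0.990 to 1.01, libraries were on a common scale. Their upper quartiles, set against their geometric mean, were 0.990 to 1.06 in mutant and 0.949 to 1.00 in control libraries. With upper-quartile scaling the log2 difference of each target was lower, as that of Ccnd1 at 0.00412 and of Sox4 at -0.413.

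Tests were run with limma 3.58.1 in R 4.3.3 on log2(value + 1), with a trend of variance on mean and no term beside group, over the 11837 genes whose mean reached 1 unit. P-values were adjusted over all of them (Benjamini-Hochberg, threshold 0.05), and intervals are at 95%. Genes named are the 8 targets, the 3 of each list with the smallest p and the 2 nearest in pattern to each target; others were named after their values were seen. Alternatives were other pseudocounts, filters and scalings, array weights, a replicate block, sex, and each library left out. Promoters came from RefSeq and exon overlaps from GENCODE, both on GRCm38. Python 3.11.15 and pandas 2.3.3 were used.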

Additional observations from a re-analysis of the deposited data

Results flagged for a closer look

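Myc and Sox9 had differences that pointed in opposite directions within the male and the female libraries. In male libraries the single mutant value of Myc, 25.5 units, lay below both control values, while in female libraries both mutant values lay above the single control value of 20.8 units. The female minus male difference of the log2 differences was 1.53 ± 0.36 for Myc and 1.18 ± 0.39 for Sox9 (SE), from a limma fit with a group by sex term that was added after seeing the data. The unadjusted p was 0.00703 and 0.0278, and the adjusted p over all genes was 0.999936 for both in limma. Of all genes tested, 15.1% had such opposite directions, and 2.15% had an unadjusted p under 0.05 for this term. The result rests on mutant replicate 1 and control replicate 3, each the only library of its sex in its group, and sex and library cannot be told apart there. Both genes were flagged for their opposite directions in these same libraries, so the p-values of this term are no separate support.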

How the results depend on the processing

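In all 15 alternative fits 0 of the 8 genes passed. An unadjusted p under 0.05 was reached by Prox1 with array weights (0.0453) and by Sox4 with the replicate block (0.0445). Over the table, genes higher in mutant libraries numbered 1 with a pseudocount of 0.1 or of 5, 20 with array weights and 0 to 2 with a library left out. Genes lower numbered 0 with a pseudocount of 5, without a filter, with the replicate block and with sex as a term, 7 with array weights and 0 to 3 with a library left out. The direction of Cd44, Ccnd2 and Prox1 held in every alternative run. With array weights the log2 difference was -0.252 for Myc, -0.0312 for Ccnd1 and -0.0940 for Sox9. With a library left out the ranges were -0.0834 to 0.428 for Myc, -0.0250 to 0.149 for Ccnd1 and -0.178 to 0.397 for Sox9. Between male libraries Myc stood at -0.550, Ccnd1 at -0.00949 and Sox9 at -0.319, and between female libraries Cdk6 stood at 0.0374 and Sox4 at 0.201. The cause was not tested. Of the 8 places in the order of levels, 5 were shared between the mutant and control means, and 3 with the control means in mutant replicate 2 and in control replicate 3. The replicate numbers were not taken as pairs in the main fit. The deviations of same-numbered libraries had correlations of -0.292, 0.333 and 0.325, against -0.487 to 0.212 for libraries with unlike numbers. These values do not settle whether the libraries are pairs, and the replicate block was fitted as an alternative. Prox1 could not be fitted at a mean of at least 5 units. Array weights count some libraries less and rest on 6 libraries. Depth is unknown, which limits Prox1 and other low values most.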
